A study of Mus musculus with 6 samples.

Results

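The Hlf-positive cells of mouse bone marrow were picked out of single-cell RNA sequencing data by their own transcripts: 1283 of 44399 kept cells, from 48277 deposited barcodes. A barcode was kept with at least 500 genes, at least 1000 unique molecular identifiers (UMIs, one per captured transcript molecule) and at most 10% of UMIs from mitochondrial genes. A kept cell was counted as Hlf-positive with at least 1 Hlf UMI and at least 2 UMIs over Hlf, Mecom and Procr. It was left out with more than 2 UMIs of Pf4, of Car1, or of Prtn3 and Ctsg together, or with any UMI of Dntt or Cd79a, which mark platelet, red cell, granulocyte and lymphoid precursors. The study compared sorted marrow of wild-type (WT) mice with that of Txnip knock-out (Txnip-KO) mice, 3 samples each. The labels name neither the sorted population nor the strain, age or sex of the mice, nor the part of Txnip that was deleted, nor whether deletion was limited to some cells. Nor do they say whether each sample is an animal of its own: the p-values rest on the spread between these 6 samples, which may be technical.

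Haematopoietic stem cells sit at the top of blood formation, divide rarely and can renew themselves as well as give rise to every blood lineage. Hlf encodes a transcription factor of the bZIP class that is largely confined to stem cells and the earliest progenitors in marrow, Mecom encodes the zinc finger factor EVI1, on which stem cell maintenance depends, and Procr encodes the endothelial protein C receptor, a surface marker used to sort them. Txnip encodes the thioredoxin-interacting protein, an arrestin-like protein that binds thioredoxin and slows glucose uptake. Its transcription is driven by the glucose-responsive factors MondoA and ChREBP with their partner Mlx, which bind pairs of E-boxes, and Arrdc4, a relative of Txnip, is driven in the same way.

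By GENCODE M21 on mouse build GRCm38, all of the following are protein-coding genes. Hlf lies on chromosome 11 (90336536 to 90390895, minus strand), Mecom on chromosome 3 (29951296 to 30548008, minus strand) and Procr on chromosome 2 (155751117 to 155755471, plus strand). Txnip lies on chromosome 3 (96557957 to 96561883, plus strand) inside the span of the antisense gene Gm15441 (96555765 to 96566801, minus strand). The sources used here do not say whether reads were counted by strand, so those of this pair may not be told apart.

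A pair of promoters is shown because their genes, Arrdc4 and Klf11, were among the genes that rose in Txnip-KO Hlf-positive cells and belong to the MondoA and ChREBP list. Each run holds 150 bases, from 250 to 101 bases before the RefSeq start, read 5′ to 3′ on the gene's strand (RefSeq, GRCm38.p6), with the E-box CACGTG in capitals. Arrdc4 is at chr7:68749339-68749488 on the minus strand, and Klf11 at chr12:24651121-24651270 on the plus strand.
Arrdc4: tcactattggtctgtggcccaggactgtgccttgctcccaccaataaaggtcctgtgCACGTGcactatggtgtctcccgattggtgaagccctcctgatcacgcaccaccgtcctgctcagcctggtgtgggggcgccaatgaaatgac
Klf11: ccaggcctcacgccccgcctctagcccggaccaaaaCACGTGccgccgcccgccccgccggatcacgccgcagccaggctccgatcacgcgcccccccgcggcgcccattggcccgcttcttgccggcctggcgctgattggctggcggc
The box starts 193 bases before the Arrdc4 start and 214 bases before the Klf11 start. Searched on both strands, CACGTG was in 1978 of 32851 RefSeq windows of the 250 bases before a start (6.02%). It was in 5 of the 17 windows of the MondoA and ChREBP list, in which some genes have several windows and Klf10 has none. CACGTG was also in 4 of the 20 windows of the cholesterol synthesis list, whose called genes were lower in Txnip-KO. The Txnip window did not hold these letters, nor did that of Mlxip, a gene of the list that also rose.

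The libraries held 61368478 to 80876483 UMIs, and 6379 to 8439 cells were kept per sample. Kept cells of any 2 libraries shared 7 to 21 barcodes, and the Hlf-positive cells shared none. The Hlf-positive cells numbered 232, 202 and 193 in WT and 195, 314 and 147 in Txnip-KO. Their summed UMIs came to 2552083, 2067819 and 1993249 in WT and to 1939931, 2478720 and 1026057 in Txnip-KO, so Txnip-KO 3 was the shallowest sum. The median Hlf-positive cell held 10089.5, 9713 and 9525 UMIs in WT and 8868, 6975 and 6336 in Txnip-KO, and the groups did not overlap. Txnip was read in every sample first, as a check of the labels. Its UMIs in the Hlf-positive cells were 1250, 649 and 836 in WT and 18, 38 and 2 in Txnip-KO. Every library matched its label.

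The genes of the rule are given here as a description, with no test, because they chose the cells. Hlf stood at 489 ± 30.4 CPM of all UMIs in WT and 593 ± 92.1 in Txnip-KO Hlf-positive cells (SD, n = 3 each), Mecom at 70.2 ± 2.21 and 82.5 ± 14.5, and Procr at 35.8 ± 3.26 and 34.9 ± 1.64. Of the 1283 cells, 594 (46.3%) held Hlf but neither Mecom nor Procr, 389 (30.3%) held Hlf and Mecom, 129 (10.1%) held Hlf and Procr, and 171 (13.3%) held all of them. At the threshold, 279 cells were inside with a sum of 2 UMIs and 1004 with 3 or more. Just outside were 667 cells with a single Hlf UMI alone and 22 cells with no Hlf but at least 2 UMIs of Mecom and Procr. A further 7695 cells reached the sum and failed an exclusion gate, 6625 of them that on Prtn3 and Ctsg, which granulocyte precursors express for their granules.

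The label was checked against the data, and 1 part of the cells went against it. In the comparison with all other kept cells, edgeR's quasi-likelihood test with Benjamini-Hochberg adjustment called 35.6% of 14976 genes in either direction, 2054 higher (13.7%) and 3282 lower (21.9%) in the Hlf-positive cells. Of the 12 widest rises, 10 were genes of innate lymphoid cells or of other lymphocytes rather than of stem cells: Pxdc1, Arg1, Cxcr6, Icos, Gata3, Il17rb, Cysltr1, Maf, Rora and Bcl11b. Gata3, the transcription factor of type 2 innate lymphoid and helper T cells, stood at 147 ± 67.5 CPM in the Hlf-positive and 21.6 ± 1.97 CPM in the other cells (SD, n = 6; log2 fold change 2.67, SE 0.14, adjusted p = 5.4e-11, higher in 6 of 6 samples). The remaining pair, Nkx2-3 and Esam, are genes of stem cells.

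These lymphoid transcripts came from a separate set of cells. Counting UMIs over Gata3, Icos, Cxcr6, Il17rb, Maf, Rora, Bcl11b and Il7r, 716 Hlf-positive cells held none, 335 held 1 or 2, 36 held 3 to 5 and 180 held over 10. The 232 cells with at least 3, called lymphoid-marked below, numbered 45, 40 and 31 in WT and 33, 46 and 37 in Txnip-KO, between 14.6% and 25.2% of a sample's Hlf-positive cells. Summed over samples, Gata3 stood at 893 CPM of all UMIs in them and 15.1 in the 1044 cells that also lack the neutrophil marks described below, Icos at 457 and 1.17, and Il7r, the interleukin 7 receptor, at 941 and 1.85. Cxcr6 had 630 UMIs in the lymphoid-marked cells and 0 in those 1044, where a count of 0 allows up to 3 UMIs by counting error. Several stem cell genes ran the other way: Kit stood at 120 and 312 CPM of all UMIs, Meis1 at 86.6 and 288, and Mecom at 32.0 and 85.6. Ly6a, which is also on the stem cell list, was higher in the lymphoid-marked cells, at 401 and 84.5. Hlf itself stood at 538 and 536. Of the lymphoid-marked cells, 27 held a Mecom or Procr UMI, against 662 of all other Hlf-positive cells. This cut was set after the data were seen and the cells were chosen by the same genes, so these levels are a description. Cd3e, a defining gene of T cells, had 2 UMIs in all of the lymphoid-marked cells. The set is called by its genes here, and not stem cells.

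**Figure D1:**
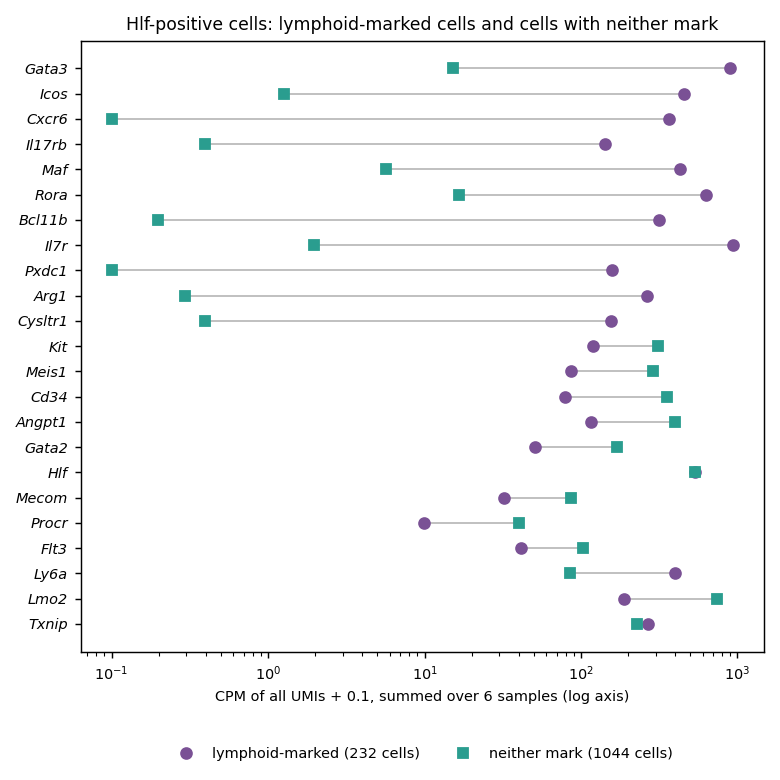
Level of 23 genes in the lymphoid-marked Hlf-positive cells (circles) and in the 1044 Hlf-positive cells with neither lymphoid nor neutrophil marks (squares), in CPM of all UMIs plus 0.1 on a log axis, summed over the 6 samples. Gata3, Icos, Cxcr6 and Il7r lie far to the right in the lymphoid-marked cells and Kit, Meis1 and Lmo2 in the cells with neither mark, while Hlf is at 538 and 536 in both. Ly6a, a gene of the stem cell list, lies to the right in the lymphoid-marked cells.

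A few cells also carried neutrophil transcripts. In all, 8 Hlf-positive cells (2, 0 and 2 in WT, and 4, 0 and 0 in Txnip-KO) held over 20 UMIs of S100a8 and Camp, which encode neutrophil proteins. In WT 3, 2 cells gave 1335 of the 1337 Camp UMIs, and in WT 1, 2 cells gave 900 of 904. Leaving out the lymphoid- and neutrophil-marked cells left 1044, and the counts of called genes below are also given for these.

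Among those 1044 cells, the widest rises over all other kept cells were genes known from stem cells and megakaryocytes. Esam, an adhesion molecule of stem cells and endothelium, stood at 29.3 ± 5.41 CPM against 6.29 ± 3.25 CPM (SD, n = 6), and Nkx2-3 at 49.9 ± 8.16 against 10.6 ± 5.03 CPM. Mmrn1, which encodes a platelet and endothelial storage protein, stood at 35.3 ± 5.42 against 8.34 ± 2.97 CPM. Each was higher in 6 of 6 samples. In the whole set, 10 of the 11 tested markers of the stem cell list were higher than in other cells and 0 were lower, with a median log2 fold change of 1.65 against -0.03 over all genes tested. The whole set includes the lymphoid-marked cells, in which Ly6a of this list stood at 401 CPM of all UMIs, against 84.5 in the 1044. Of the regulators of stem cells, 19 of 24 were higher and 1 was lower.

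Cell cycle and respiration genes were low in the Hlf-positive cells. Of 42 S phase genes 39 were lower and 0 higher, of 51 G2 and M phase genes 22 were lower and 0 higher, and of 68 oxidative phosphorylation genes 59 were lower and 0 higher. Of 31 ribosome biogenesis genes, 24 were lower and 1 higher. The rule itself removed cells with a Cd79a or Dntt UMI, so low levels of B lineage genes are partly fixed by it. Ebf1, the B cell specification factor, stood at 0.547 ± 0.567 CPM against 70.2 ± 29.3 CPM in other cells (n = 6). Against 289 other progenitors with a Kit and a Flt3 UMI that passed the same gates, 2084 of 9247 genes were called (22.5%), 856 higher (9.26%) and 1228 lower (13.3%), but each sample held only 36 to 64 of those progenitors.

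The share of cells with a UMI varied widely between stem cell markers. Without thinning, a Slamf1 UMI (CD150, a sorting marker of long-term stem cells) was in 5.17, 4.95 and 5.70% of WT and 13.3, 7.32 and 7.48% of Txnip-KO Hlf-positive cells. Cells with at least 3 Cd79a UMIs and no Hlf, called B-lineage cells, serve as the background; Slamf1 was in 1.43% of them, at sample medians of 2879 to 9243.5 UMIs per cell against 6336 to 10089.5 in the Hlf-positive cells. Kit, the stem cell factor receptor, was in 77.2, 74.3 and 76.7% of WT and 86.7, 80.6 and 68.0% of Txnip-KO cells, and in 18.4% of B-lineage cells. Flt3, a receptor of multipotent and lymphoid progenitors that long-term stem cells lack, was in 40.5, 39.6 and 49.2% of WT and 42.6, 36.3 and 30.6% of Txnip-KO cells. Its share in B-lineage cells, whose early stages can express it, was 41.5%. Cd48, which lymphocytes express too, was at 42.7% ± 5.72 in WT and 33.7% ± 4.88 in Txnip-KO cells (SD, n = 3 each), and at 58.5% in B-lineage cells.

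To compare these shares between genotypes, each cell was thinned to 2000 UMIs. The groups then did not overlap for 6 of the 22 genes compared, 4 higher and 2 lower in Txnip-KO. On UMIs summed per sample, a different measure, they did not overlap for 34.1% of all 9971 genes tested. That background was not computed for shares of thinned cells. Kit was in 36.6, 34.0 and 33.2% of WT and 46.4, 46.5 and 44.1% of Txnip-KO cells. Meis1, a homeobox partner of the Hox factors, was in 29.7, 29.5 and 32.1% of WT and 49.5, 43.6 and 34.3% of Txnip-KO cells. Slamf1 was in 0.431, 0.500 and 1.04% of WT and 4.12, 3.50 and 2.80% of Txnip-KO cells, and Esam in 1.72, 1.5 and 4.15% against 5.67, 7.32 and 5.59%. The lower ones were Txnip and Flt3, but thinned to 4000 UMIs Flt3 was in 27.0% of WT and 28.0% of Txnip-KO cells and the groups overlapped. With 3 samples against 3, a two-sided exact permutation test cannot go below 0.1, and each of these 6 reached that value (0.367 after Benjamini-Hochberg adjustment over the 22 genes). Mki67 and Top2a, which mark cycling cells, were in 7.12% ± 3.66 and 10.5% ± 4.45 of WT and 7.53% ± 2.28 and 8.10% ± 3.13 of Txnip-KO cells, and the groups overlapped. Leaving out Txnip-KO 2 gave 11 genes without overlap in place of 6.

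The share of kept cells that were Hlf-positive did not separate the genotypes. It was 3.53% (95% exact Clopper-Pearson interval 3.10 to 4.01), 2.69% (2.34 to 3.08) and 2.66% (2.3 to 3.05) in WT, and 3.06% (2.65 to 3.51), 3.72% (3.33 to 4.15) and 1.79% (1.51 to 2.10) in Txnip-KO. These intervals cover counting error only. The lowest and the highest share were both of Txnip-KO samples. The mean difference, Txnip-KO minus WT, was -0.105 percentage points (two-sided exact permutation p = 1). In sorted marrow, a share depends on the gate and on the other cells in it.

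That share changed with the exclusion gates and with thinning. With each cell thinned to 2000 UMIs before the rule, it was 3.50, 3.15 and 2.71% in WT and 7.07, 7.04 and 4.02% in Txnip-KO, and the groups did not overlap (two-sided exact permutation p = 0.1, the smallest this design allows). At 4000 UMIs it was 6.34, 5.42 and 4.74% against 8.47, 7.72 and 4.45%, and they overlapped. With no exclusion gates it was 16.7, 14.9 and 14.6% against 26.2, 29.3 and 19.0%, again without overlap (exact permutation p = 0.1). Among the cells outside the set, Hlf stood at 61.1 ± 4.81 CPM of all UMIs in WT and 137 ± 29.9 in Txnip-KO (SD, n = 3 each), Mecom at 10.3 ± 1.26 and 23.0 ± 4.19, and Prtn3 at 371 ± 55.5 and 411 ± 10.6.

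**Figure D2:**
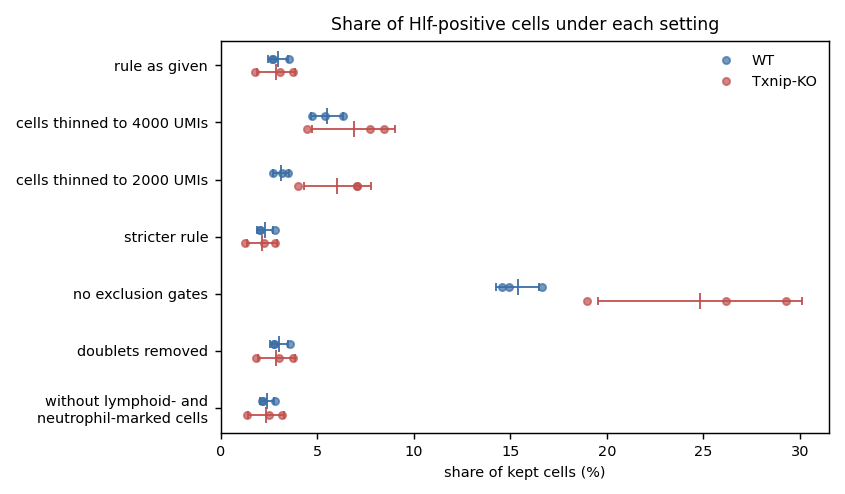
Share of kept cells that were Hlf-positive in each sample (points; vertical tick and bar: mean and SD, n = 3) for WT and Txnip-KO under the rule as given and 6 alternatives. The groups overlap under the rule as given and separate with cells thinned to 2000 UMIs and with no exclusion gates.

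The genotypes were then compared within the Hlf-positive cells, on UMIs summed per sample, which asks what loss of Txnip changes in these cells. Of 9971 genes tested, 1526 (15.3%) were called by edgeR's quasi-likelihood test at a Benjamini-Hochberg adjusted p under 0.05. In Txnip-KO, 714 (7.16%) were higher and 812 (8.14%) lower, and the median log2 fold change over all genes was 0.01. The groups did not overlap for 34.1% of all genes tested, which is the background for each remark on overlap below. In all other kept cells, 6089 of 14771 genes (41.2%) were called between genotypes. The count fell to 531 without WT 2, 639 without Txnip-KO 1, 834 without WT 3 and 971 without WT 1. Without the lymphoid- and neutrophil-marked cells 1719 were called, and they held 89.2% of the 1526. Since cells were summed, fewer cells carrying a transcript and less of it per cell cannot be told apart in what follows.

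Txnip itself stood at 503, 323 and 444 TMM-scaled CPM in WT against 8.82, 15.2 and 1.93 CPM in Txnip-KO, with every Txnip-KO sample far below every WT sample (log2 fold change -5.37, SE 0.26, adjusted p = 1.73e-09). A Txnip UMI was in 93.1, 89.1 and 96.4% of WT and in 8.72, 10.8 and 1.36% of Txnip-KO Hlf-positive cells. The antisense gene Gm15441 stood at 1.96, 1.45 and 1.51 CPM of all UMIs in WT and 10.8, 10.1 and 0.975 in Txnip-KO, high in the same 2 Txnip-KO samples that kept the most Txnip UMIs.

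Arrdc4, Klf10 and Klf11 of the MondoA and ChREBP list rose. Arrdc4 stood at 12.9, 9.95 and 16.5 CPM in WT against 52.0, 60.4 and 60.7 CPM in Txnip-KO (log2 fold change 2.14, SE 0.19, adjusted p = 4.42e-06). Klf10, a Krüppel-like repressor induced by glucose and by TGF-beta, stood at 25.3, 11.9 and 21.2 CPM against 77.4, 89.7 and 96.4 CPM (2.13, SE 0.19, adjusted p = 4.98e-06). The related Klf11 stood at 4.82, 3.98 and 3.19 CPM against 12.7, 16 and 30.9 CPM (2.16, SE 0.37). In all 3 genes the groups were well apart. Of the 11 tested genes of the MondoA and ChREBP list, 4 were higher and 3 lower, with Mlxip, which encodes MondoA, the fourth that rose (1.0, SE 0.18; named after its value was seen) and Txnip among the lower. The other 2 lower ones were Hk2, a hexokinase (-1.07, SE 0.21), and Slc2a1, the glucose transporter GLUT1 (-1.02, SE 0.31), and the call of Slc2a1 was lost without any 1 of the 6 samples.

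**Figure D3:**
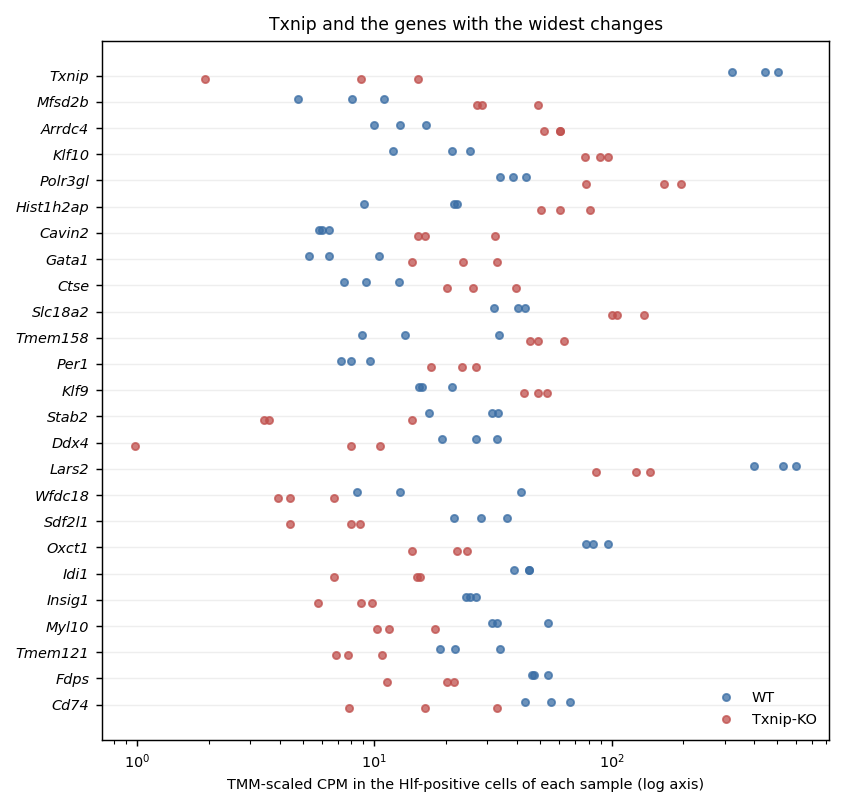
TMM-scaled CPM in the Hlf-positive cells of each sample (points, log axis) for Txnip and for the 12 genes with the widest rises and the 12 with the widest falls among called genes without overlap. In each row the 3 WT points lie on one side of the 3 Txnip-KO points, and Txnip falls from 323 or more to 15.2 or less.

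Several of the widest rises were genes of megakaryocytes, red cell precursors and mast cells. Mfsd2b, a transporter that exports sphingosine 1-phosphate from red cells and platelets, stood at 8.04, 10.9 and 4.78 CPM in WT against 49.0, 28.4 and 27.0 CPM in Txnip-KO (2.14, SE 0.29, adjusted p = 3.14e-04). Gata1, the master regulator of red cell and megakaryocyte fates, stood at 10.5, 6.47 and 5.31 CPM against 32.8, 23.6 and 14.5 CPM (1.69, SE 0.30, adjusted p = 0.00219). Cavin2, a caveola coat protein abundant in platelets, stood at 6.03, 6.47 and 5.84 CPM against 32.3, 15.2 and 16.4 CPM (1.82, SE 0.32). Slc18a2, the vesicle transporter of serotonin and histamine, stood at 43.0, 31.8 and 40.4 CPM against 137, 100 and 105 CPM (1.57, SE 0.15). In each of these, Txnip-KO 1 was the highest sample.

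Gata1 was seen in few cells, and Mfsd2b and Itga2b in more, most of all in Txnip-KO 1. Gata1 UMIs were in 12, 10 and 6 cells of WT against 31, 37 and 11 of Txnip-KO, and the 2 cells with the most Gata1 held 8 of 26, 4 of 13 and 5 of 10 UMIs in WT and 10 of 67, 7 of 59 and 5 of 15 in Txnip-KO. Mfsd2b was in 4.74, 4.95 and 3.11% of WT and 24.6, 12.7 and 12.2% of Txnip-KO cells. Itga2b, the platelet integrin CD41, was in 21.1, 15.8 and 19.2% of WT and 43.6, 28.0 and 23.8% of Txnip-KO cells. The summed markers of the megakaryocyte list ranged from 293 to 313 CPM of all UMIs in WT and from 366 to 599 in Txnip-KO, and 2 of its 7 tested genes were higher. The summed red cell list ranged from 902 to 944 and from 950 to 1101, with 1 of 3 tested genes higher. The part of cells with these transcripts in the other results was not tested. In the 1044 cells without lymphoid and neutrophil marks, the Gata1 change was 1.67 (SE 0.28).

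Polr3gl, which encodes a subunit of RNA polymerase III, lies near Txnip, on chromosome 3 (96577872 to 96594181, minus strand; GENCODE M21, GRCm38). It stood at 38.6, 43.8 and 34.0 CPM in WT against 197, 167 and 78.1 CPM in Txnip-KO (1.97, SE 0.23). Of the other wide rises, the clock repressor Per1 rose by 1.51 (SE 0.24), the glucocorticoid-responsive factor Klf9 by 1.45 (SE 0.18), the protease Ctse by 1.60 (SE 0.27), the replication histone Hist1h2ap by 1.84 (SE 0.24) and Tmem158 by 1.57 (SE 0.30) on the log2 scale.

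Regulators of stem cells tended to be higher in Txnip-KO. Of 23 tested, 9 were higher, 1 was lower and 13 were not called, with a median log2 fold change of 0.27. Gata2, which stem cell survival depends on, stood at 96.1, 109 and 93.0 CPM in WT against 269, 203 and 155 CPM in Txnip-KO (1.09, SE 0.15, adjusted p = 3.98e-04). Meis1 stood at 219, 196 and 210 CPM against 372, 301 and 267 CPM (0.59, SE 0.12). The groups were apart for both, and Txnip-KO 1 was again the highest. Runx1, a core factor of blood formation, rose by 0.66 (SE 0.13), and Tal1 and Etv6 by 0.85 (SE 0.19) and 0.46 (SE 0.11).

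Mllt3, Msi2 and Zfp521 were also called higher and the growth suppressor Ndn lower. The count was 5 without WT 3, without Txnip-KO 1 or without Txnip-KO 2: the calls of Mllt3, Msi2, Zfp521 and Ndn each were lost in at least 4 of the 6 fits with 1 sample left out, that of Etv6 without WT 3 and without Txnip-KO 2, and that of Tal1 without Txnip-KO 1. The Hox genes did not pass the test: Hoxa9 stood at 97.3, 107 and 110 CPM in WT against 106, 123 and 118 CPM in Txnip-KO (0.14, SE 0.11), and Hoxa10 differed by 0.04 (SE 0.22). Lmo2 at 0.08 (SE 0.12), Bmi1 at 0.22 (SE 0.18) and Prdm16 at -0.29 (SE 0.27) were not called either.

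Of 27 tested surface and niche receptors, 7 were higher and 2 lower, with a median of 0.41. Kit stood at 255, 229 and 245 CPM in WT against 348, 343 and 297 CPM in Txnip-KO (0.44, SE 0.10), Itga6, a laminin-binding integrin, at 44.2, 42.3 and 35.1 CPM against 87.7, 66.8 and 55.0 CPM (0.81, SE 0.16), and Itga4, which anchors cells in the marrow, at 187, 157 and 142 CPM against 271, 213 and 243 CPM (0.57, SE 0.12). Slamf1 stood at 6.83, 5.47 and 6.37 CPM against 14.7, 13.2 and 13.5 CPM (1.13, SE 0.28), with all Txnip-KO samples above all WT samples. Sult1a1, a sulfotransferase, rose by 2.25 (SE 0.39) from at most 6.91 CPM.

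Cxcr4, the receptor that keeps stem cells in the marrow, and Clec1a were higher by 0.79 (SE 0.22) and 1.34 (SE 0.39). The lymphotoxin gene Ltb fell by 0.70 (SE 0.15) and the antiviral membrane protein Ifitm3 by 0.46 (SE 0.11). Ly6a, which encodes Sca-1 (0.19, SE 0.21), Tek (0.79, SE 0.40) and Fgd5 (0.66, SE 0.36) were not called. The 7 higher calls became 3 without WT 2 and 4 without Txnip-KO 1. Kit lost its call without WT 2, Slamf1 and Ifitm3 without WT 2 and without Txnip-KO 1, Cxcr4 without any 1 of WT 1, WT 2, Txnip-KO 1 and Txnip-KO 2, and Clec1a without any 1 sample except Txnip-KO 3.

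Genes that FoxO factors switch on when insulin and growth factor signals are low moved up as a list: 7 of 17 were higher and 0 lower, with a median of 0.53. Tsc22d3, a glucocorticoid and FoxO target, stood at 77.6, 94.0 and 130 CPM in WT against 265, 312 and 178 CPM in Txnip-KO (1.36, SE 0.18). Pik3ip1, an inhibitor of PI3 kinase, stood at 74.0, 73.1 and 90.8 CPM against 182, 217 and 143 CPM (1.21, SE 0.14). S1pr1, the sphingosine 1-phosphate receptor, stood at 11.3, 9.95 and 7.44 CPM against 24.0, 19.2 and 22.2 CPM (1.16, SE 0.24), and Igf1r at 102, 85.6 and 93.0 CPM against 193, 154 and 155 CPM (0.84, SE 0.12). In all 4 the groups were apart. The count was 4 without WT 2, without WT 3 or without Txnip-KO 1.

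Genes of cholesterol synthesis fell. Of 21 tested, 11 were lower and 0 higher, with a median of -0.78. Idi1, which makes the isoprenoid building block, stood at 45.0, 44.8 and 38.8 CPM in WT against 15.2, 15.6 and 6.75 CPM in Txnip-KO (-1.66, SE 0.21, adjusted p = 2.10e-04). Mevalonate kinase (Mvk) stood at 15.7, 10.9 and 11.2 CPM against 1.47, 3.20 and 2.89 CPM (-2.32, SE 0.38), farnesyl diphosphate synthase (Fdps) at 53.9, 47.3 and 46.2 CPM against 11.3, 21.6 and 20.2 CPM (-1.49, SE 0.20), and Insig1, the sterol sensor that holds back the pathway's transcription factor, at 26.9, 25.4 and 24.4 CPM against 9.80, 8.81 and 5.79 CPM (-1.58, SE 0.23). Every Txnip-KO sample was below every WT sample for these genes. Between 8 and 11 genes were called with 1 sample left out. None of the 20 RefSeq windows of this list held the sterol regulatory element (1 position free), searched on both strands, which 0.192% of all windows hold.

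Respiration genes encoded in the nucleus fell by small amounts: 39 of 68 were lower and 0 higher, with a median of -0.35. Cycs, which encodes cytochrome c, stood at 150, 169 and 162 CPM in WT against 88.2, 104 and 100 CPM in Txnip-KO (-0.71, SE 0.11), and Ndufa12 of complex I at 205, 211 and 200 CPM against 124, 146 and 131 CPM (-0.61, SE 0.10). The count was 9 without WT 2, 13 without Txnip-KO 1 and 18 without WT 3, all lower. Of the 13 genes encoded in mitochondria, mt-Co1 was higher, at 4804, 4124 and 4664 CPM against 6130.5, 6825 and 6918 CPM (0.55, SE 0.07), and 4 were lower, mt-Nd2 among them (-0.46, SE 0.08). The median mitochondrial share of UMIs in an Hlf-positive cell was 3.61 to 3.79% in WT and 3.94 to 4.0% in Txnip-KO.

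Other mitochondrial and fuel genes moved further. Lars2, the mitochondrial leucyl-tRNA synthetase, stood at 601, 397 and 529 CPM in WT against 145, 86.1 and 126 CPM in Txnip-KO (-2.11, SE 0.17, adjusted p = 1.96e-06). Oxct1, which lets cells burn ketone bodies, stood at 96.5, 83.6 and 78.1 CPM against 24.5, 22.4 and 14.5 CPM (-2.01, SE 0.16, adjusted p = 1.96e-06). Cpt1a, which carries fatty acids into mitochondria, stood at 29.7, 27.9 and 28.7 CPM against 78.9, 65.6 and 69.4 CPM (1.31, SE 0.14), and Acot1, an acyl-CoA thioesterase, at 24.5, 25.4 and 36.7 CPM against 57.3, 72.4 and 113 CPM (1.44, SE 0.22). Of the 23 tested genes of fatty acid and ketone use, 3 were higher and 4 lower, and the 4 became 1 or 2 without WT 1, WT 2 or Txnip-KO 1.

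Glycolysis genes were lower where they were called: 8 of 23, and 0 higher (4 without WT 2 or Txnip-KO 1, 5 without WT 3). The aldolase Aldoc stood at 16.1, 15.9 and 13.3 CPM in WT against 3.43, 4.80 and 6.75 CPM in Txnip-KO (-1.68, SE 0.31), and the lactate dehydrogenase subunit Ldhb at 85.6, 91.6 and 100 CPM against 39.7, 57.2 and 60.7 CPM (-0.83, SE 0.15). Of the thioredoxin, peroxiredoxin and glutathione list, 8 of 28 were lower and 0 higher (5 without WT 1 or WT 3, 3 without WT 2, 4 without Txnip-KO 1). Txn1, the thioredoxin that the Txnip protein binds, stood at 556, 613 and 531 CPM against 347, 417 and 410 CPM (-0.53, SE 0.10).

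Genes of protein folding showed the largest called share of any list in the plot by gene list: 16 of 24 were lower and 0 higher, with a median of -0.46. Sdf2l1, a partner of the endoplasmic reticulum chaperone BiP, stood at 21.7, 36.3 and 28.2 CPM in WT against 4.41, 8.01 and 8.68 CPM in Txnip-KO (-2.05, SE 0.28), and the stress-secreted factor Manf at 130, 164 and 154 CPM against 71.1, 84.5 and 113 CPM (-0.77, SE 0.14). The count was 8 without WT 2 or Txnip-KO 1. Of 31 ribosome biogenesis and MYC genes, 9 were lower and 0 higher (3 without WT 2, 4 without Txnip-KO 1), among them the translation factor Eif4a1 at 643, 745 and 723 CPM against 443, 464 and 385 CPM (-0.71, SE 0.10). Of 27 interferon response genes, 8 were lower and 0 higher (4 without WT 2, WT 3 or Txnip-KO 1), with the ubiquitin-like Isg15 at 22.9, 18.4 and 22.3 CPM against 6.86, 10.4 and 8.68 CPM (-1.28, SE 0.24).

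**Figure D4:**
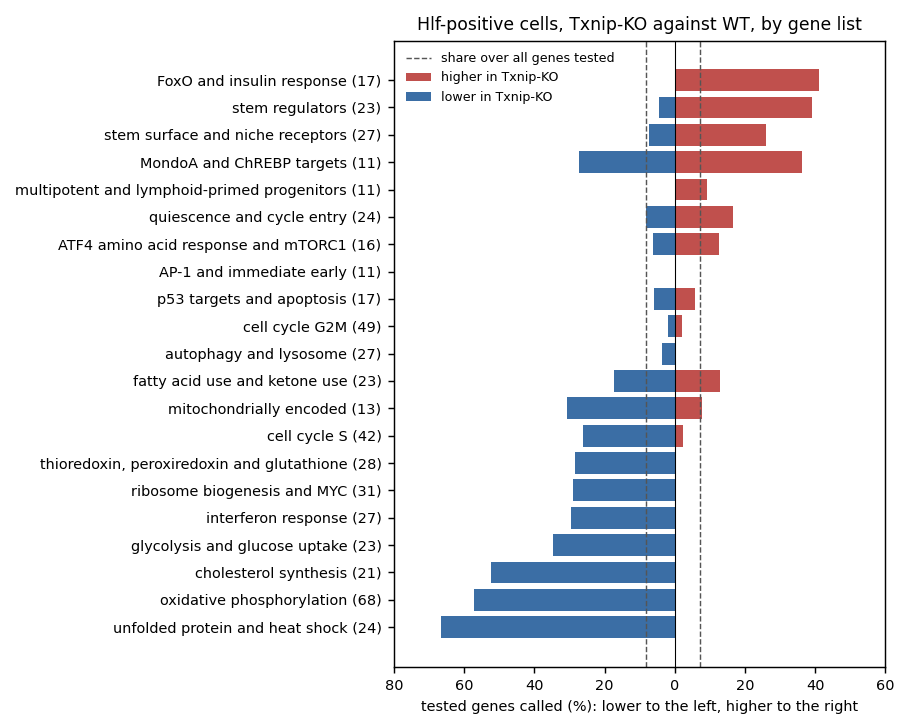
Share of tested genes called higher (right) or lower (left) in Txnip-KO Hlf-positive cells for 21 gene lists, with the number tested in brackets; dashed lines mark the 7.16% higher and 8.14% lower over all genes tested. Protein folding, oxidative phosphorylation and cholesterol synthesis reach furthest to the left, and FoxO response and stem regulators furthest to the right.

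Of the regulators of quiescence and cycle entry, Cdk6, the kinase that takes stem cells out of quiescence, rose from 295, 285 and 274 CPM in WT to 630, 501 and 446 CPM in Txnip-KO (0.89, SE 0.12), while its relative Cdk4 fell from 281, 304 and 304 to 162, 203 and 190 CPM (-0.68, SE 0.11). The inhibitor Cdkn1c, a keeper of quiescence, was lower by -0.81 (SE 0.25), a call lost without any 1 of the samples except Txnip-KO 2. The list held 4 higher and 2 lower of 24 (2 and 1 without WT 2). Of 42 S phase genes, 11 were lower and 1 higher, and of 49 G2 and M phase genes 1 was lower and 1 higher. The S phase count was 3 without WT 2 or Txnip-KO 1, 4 without WT 1 and 17 without Txnip-KO 2, and 4 in cells with no Mki67 or Top2a UMI.

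The p53 list (1 higher, 1 lower of 17), the amino acid response list (2 higher, 1 lower of 16), the autophagy list (0 higher, 1 lower of 27) and the immediate early list (0 of 11 in either direction) held 3 or fewer called genes each. Of the multipotent and lymphoid-primed list, 1 of 11 was higher. Among the other wide falls, Stab2, a scavenger receptor of sinusoidal endothelium, stood at 33.4, 31.3 and 17.0 CPM in WT against 3.43, 3.60 and 14.5 CPM in Txnip-KO (-2.26, SE 0.39), and UMIs of it were in 23, 19 and 12 cells of WT but 2, 6 and 8 of Txnip-KO. Ddx4, a germ cell RNA helicase, stood at 19.3, 26.9 and 32.9 CPM against 0.980, 8.01 and 10.6 CPM (-2.11, SE 0.39), and Cd74, the class II invariant chain, at 67.1, 43.3 and 55.8 CPM against 7.84, 32.8 and 16.4 CPM (-1.47, SE 0.30). Wfdc18 was lower by -2.10 (SE 0.52), a call lost without WT 3, Txnip-KO 1 or Txnip-KO 2. Myl10 and Tmem121 fell by 1.5 (SE 0.26) and 1.49 (SE 0.28).

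Whether the change with genotype differed from that in all other kept cells was tested as an interaction, with the sample as a block. Of 14985 genes, 229 (1.53%) were called, 107 with the more positive change in the Hlf-positive cells (0.714%) and 122 with the more negative (0.814%). The count was 127 without WT 3 and 139 without WT 1, and 388 without the lymphoid- and neutrophil-marked cells. The 229 include Hlf, Mecom, Procr and Car1, which chose the cells, so their calls are not read as results. The other kept cells are a mixture whose makeup can shift with genotype, and they include the 7695 cells that failed a gate only.

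Genes of the red cell and megakaryocyte lists went both ways. Of 11 tested red cell markers, 2 had the more positive change in the Hlf-positive cells (Klf1 and Car1). Car1 is a gene of the rule, which allows at most 2 of its UMIs in an Hlf-positive cell, so its call is not read as a result. The more negative change was called for 2, Hbb-bt (-2.01, SE 0.13) and Car2 (-0.43, SE 0.08). Of 12 megakaryocyte markers, 1 was more positive (Itga2b) and 1 more negative (Ppbp, -3.90, SE 0.81). The mean of Gata1 went from 7.07 to 22.4 CPM in the Hlf-positive cells and from 29.9 to 30.4 CPM in the others (difference of log2 fold changes 1.71, SE 0.30, adjusted p = 6.5e-04). Cavin2 differed by 1.64 (SE 0.33), a call lost without WT 1 or Txnip-KO 1, and Klf1, the red cell factor, by 2.41 (SE 0.51) at means of 1.37 and 7.66 CPM, a call lost without Txnip-KO 1. Gata2 differed by 0.77 (SE 0.11) and Itga2b by 0.97 (SE 0.14). Gata2, Itga2b, Hbb-bt, Car1, Car2 and the genes named in the next paragraph were chosen from the lists after their values were seen.

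Genes of mitosis held their level in the Hlf-positive cells while they fell elsewhere. In the other kept cells, 42 of 51 G2 and M phase genes were lower in Txnip-KO, with a median of -0.65. Of all 14771 genes tested there, 21.2% were lower. In the Hlf-positive cells 1 of 49 was lower, with a median of -0.06, and 8.14% of all 9971 genes tested were lower. The difference itself was called for 12 of 51, all with the more positive change in the Hlf-positive cells, against 0.714% of all 14985 genes. Birc5, which encodes survivin, changed by -0.13 in the Hlf-positive and -1.09 in the other cells (difference 0.92, SE 0.18), Mki67 by 0.20 and -0.65 (0.81, SE 0.15), and Tpx2, a spindle assembly factor, by -0.01 and -0.90 (0.84, SE 0.16). The count was 5 without WT 3, 4 without Txnip-KO 1, 20 without Txnip-KO 3, 28 without the lymphoid- and neutrophil-marked cells and 2 with each cell thinned to 2000 UMIs. None of the oxidative phosphorylation or cholesterol synthesis genes was called in this test.

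Markers of stem cells went the other way. Nkx2-3 changed by 0.04 in the Hlf-positive and 0.96 in the other cells (difference -1.03, SE 0.18) and Esam by 0.43 and 1.36 (-1.01, SE 0.21). Of the stem regulators 5 of 24 had the more negative change in the Hlf-positive cells and 1 the more positive. That count was 1 without WT 1, WT 3 or Txnip-KO 1. Beside this stand the values given above: without exclusion gates the Hlf-positive share was 15.4% ± 1.11 of WT and 24.8% ± 5.27 of Txnip-KO cells (SD, n = 3 each), so the other kept cells held more gated-out Hlf-positive cells in Txnip-KO. The part of this shift in these differences was not tested.

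**Figure D5:**
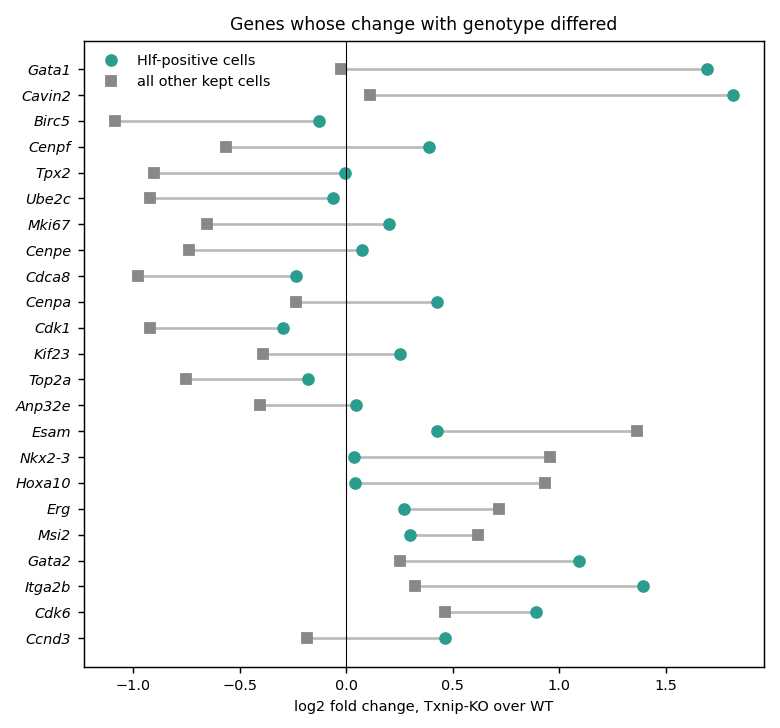
Log2 fold change of Txnip-KO over WT in the Hlf-positive cells (circles) and in all other kept cells (squares) for 23 genes whose change differed between them. Gata1 and Cavin2 are shifted only in the Hlf-positive cells, the mitosis genes from Birc5 to Anp32e lie to the left in the other cells, and Esam, Nkx2-3 and Hoxa10 lie to the right there.

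Against the Kit and Flt3 progenitors, the change with genotype differed for 21 of 9254 genes (0.227%), 8 more positive (0.0864%) and 13 more negative (0.14%) in the Hlf-positive cells, and 873 genes had an unadjusted p under 0.05. The count was 3 without WT 1 and 13 without the lymphoid- and neutrophil-marked cells. The widest negative differences were neutrophil genes, whose WT counts in the Hlf-positive cells came almost whole from 2 cells each in WT 1 and WT 3. In the progenitors these genes were highest in Txnip-KO 3, which held 42 such cells. There S100a8 stood at 0, 8.89 and 4.29 CPM in WT against 28.2, 6.40 and 404 CPM in Txnip-KO. Camp stood at 0, 0 and 2.14 CPM against 0, 0 and 163 CPM.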

How the data were processed

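Single-cell RNA libraries (10x Genomics 3′ chemistry, per the labels' protocols) of 3 WT and 3 Txnip-KO samples were used as the UMI counts per gene and barcode that the authors deposited. Cell Ranger 6.1.1, CASAVA 1.8 and Seurat 2.3.4 are named in the submitters' processing notes; for the build and annotation of the counts, the sources used here name none. Of 31253 features, 31184 identifiers were found in GENCODE M21, 30273 with the same symbol.

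The members, gene lists and tests were chosen with earlier results of these data known. Counts of the chosen cells were summed per sample. Gene-wise tests used edgeR 4.0.16 (R 4.3.3; quasi-likelihood, filterByExpr, TMM scaling, Benjamini-Hochberg adjusted p under 0.05); comparisons of cell kinds and interactions had the sample as a block. Values written as CPM in these comparisons are TMM-scaled, and values written as CPM of all UMIs are divided by the total of the same cells. The standard error was the log2 fold change divided by the square root of F. The fits were first tested on simulated data. Shares were compared by exact permutation (scipy 1.17.1).

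Genes were named by a rule: Txnip; the 12 widest rises and 12 widest falls among called genes without overlap and with a mean of at least 20 CPM in the higher group; up to 4 called members of each list; any stem regulator or surface receptor; 12 rises and 6 falls between cell kinds; and 8 interactions in each direction. Predicted genes were not named, and some genes the rule names are not reported here. Alternatives were DESeq2 1.42.0, DESeq2 size factors, no filter, a stricter rule (at least 2 Hlf UMIs and a sum of 3), no gates, thinning, removal of the highest doublet scores (Scrublet, 0.8% per 1000 barcodes; doublets stayed in otherwise), cells without Mki67 or Top2a, and each sample left out. Leaving out lymphoid- and neutrophil-marked cells was added after seeing the data.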

Additional observations from a re-analysis of the deposited data

Results flagged for a closer look

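Genes whose change with genotype differed between the Hlf-positive cells and other cells are given here with the difference of log2 fold changes, tested as an interaction with edgeR's quasi-likelihood test and Benjamini-Hochberg adjustment. Against all other kept cells 229 genes passed, the rule genes Hlf, Mecom, Procr and Car1 among them. In the positive direction stood the immunoglobulin genes Igha at 2.92 and Igkc at 2.10, the red cell factor Klf1 at 2.41, Gata1 at 1.71, Cavin2 at 1.64, the receptor gene Lilr4b at 1.88, and the basophil and mast cell genes Mcpt8 at 1.8 and Ms4a2 at 1.71. Igkc had 6, 5 and 8 UMIs in WT and 9, 113 and 10 UMIs in Txnip-KO Hlf-positive cells, so it rested on Txnip-KO 2. In that sample the 113 UMIs were spread over 95 of 314 Hlf-positive cells (30.3%), and 32.0% of the other kept cells held an Igkc UMI. For Igha these shares were 12.1% and 15.2%. Whether these UMIs came from free RNA was not tested. In the negative direction stood Ppbp, a platelet chemokine, at -3.90, and the neutrophil genes Lcn2 at -3.98, Chil3 at -4.03, S100a9 at -4.53, Ngp at -4.56, Wfdc21 at -4.86, S100a8 at -4.97 and Camp at -5.58. In WT 1 and WT 3, 2 cells each held 2449 of 2461 and 4051 of 4067 S100a8 UMIs.

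Against the Kit and Flt3 progenitors 21 genes passed. The positive differences were Klrd1 at 2.08, Bst2 at 1.56, Pclaf at 1.51, the lysosomal proteases Ctsl at 1.5 and Ctsb at 1.23, Lgals1 at 1.22, Reep5 at 1.03 and Tmsb10 at 0.68. The negative ones were Cd63 at -1.13, Ifitm1 at -2.48, Lyz2 at -2.61, S100a8 at -8.21, S100a9 at -8.47, Ngp at -8.76, Lcn2 at -10.10 and Camp at -10.81. Of these 16 genes, 2 lost no call under the alternatives that gave a value for them.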

How the results depend on the processing

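The 1526 genes called between genotypes became 809 by DESeq2's Wald test, 348 with cells thinned to 2000 UMIs, 2696 with the rule applied to cells thinned to 4000 UMIs, 4673 without gates, and 531 to 1541 with 1 sample left out. None of the 129 named genotype results reversed under an alternative that tested it; of 2251 such recomputed values, 195 lost a call and 37 gained one. Thinned to 2000 UMIs, 2869 genes were called against all other kept cells and 669 against the Kit and Flt3 progenitors. With 1 sample left out these were 4319 to 5197 and 1473 to 2235. The 229 interactions became 388 without lymphoid- and neutrophil-marked cells, 365 without a filter, 68 thinned, and 127 to 239 with 1 sample left out. The 21 against progenitors became 13, 125 without a filter, and 3 to 21. The share difference was 1.38 and 2.92 percentage points with cells thinned to 4000 and 2000 UMIs, 9.43 without gates, and -0.54 to 0.43 with 1 sample left out. The 6 genes with separate UMI shares were 4 without thinning, 8 thinned to 4000 UMIs, and 7 to 11 with 1 sample left out. The cause of these moves was not tested, except that fewer samples or UMIs were used where they were left out.

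Without lymphoid- and neutrophil-marked cells, the comparison with other cells reversed for Pxdc1 (-8.37), Arg1 (-4.31), Cxcr6 (-10.70), Icos (-2.82), Gata3 (-0.54), Il17rb (-3.63), Cysltr1 (-3.83), Maf (-1.22), Rora (-0.37) and Bcl11b (-6.56), cells that were removed by several of these genes, and the interaction for Lcn2 (0.63), Chil3 (3.31), S100a9 (0.14), Ngp (1.03) and Wfdc21 (6.22). With the highest doublet scores removed, the interaction reversed for Igha (-3.76), Igkc (-1.77) and Wfdc21 (5.68). Of these reversed interactions, only those of Chil3 (adjusted p = 3.0e-04) and Igkc (adjusted p = 0.020) were called by edgeR's quasi-likelihood test. The others had an adjusted p of 0.361 or more in that test, so their call was lost.

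With the replicate number as a block, 1849 genes were called between genotypes. Same-numbered samples correlated at 0.25, 0.31 and 0.0094 in their deviations from the group means, and Txnip-KO 3 correlated better with WT 2 (0.045). Pairs of unlike number ranged from -0.33 to 0.16. The labels do not say whether the numbers pair samples, and that was not tested.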
